A study of Mus musculus with 12 samples.

Results

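Macrophages and other myeloid cells express a set of receptors, signalling adaptors, complement chains and lysosomal proteins that fibroblasts make little of or not at all. The 28 genes described here were listed as such, although P2ry6 lay above the 75th percentile of signal on all 12 arrays. They were measured in cultures labelled as mouse embryonic fibroblasts. They were listed by name and chosen by their signal on these arrays, known from earlier results to be dim in many Atm-KO samples, so the comparison between genotypes is given below as a description: no p-value of a member is given for it, and nothing is read from its counts of calls. Of the 28 listed genes, 27 had a probe that could be named, out of 17305 genes named on the array, and Cd68 is not analysed here. The 24 genes that all 3 arrays of some group measured well above background were tested, among 12805 named genes. Of these 24, 10 met that condition in Atm-WT groups only, none in Atm-KO groups only and 14 in groups of both genotypes.

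The embryonic fibroblasts were labelled Atm-WT or Atm-KO, wild type or knockout for Atm, whose product is a kinase activated by DNA breaks. Cultures of each genotype were left nonirradiated or received 4.32 Gy, and RNA was collected 72 h later. Each of the 4 groups had 3 samples, each on 1 single-colour Agilent array, giving 12 arrays. The labels give no strain, passage, embryo or way of deleting Atm, and they do not say whether replicates were separate cultures, so p-values reflect variation among these samples alone, possibly technical.

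A macrophage depends on the growth factor receptor encoded by Csf1r and carries surface receptors that sense microbes, dying cells and antibody. Many of these receptors have no signalling tail and use the adaptors encoded by Tyrobp and Fcer1g, whose ITAM motifs recruit tyrosine kinases, while receptors with ITIM motifs recruit phosphatases such as the product of Ptpn6 and restrain the response. Macrophages also secrete the C1q chains that start the classical complement pathway, and digest what they engulf with lysozyme and cathepsins. Embryos hold macrophages in nearly all tissues.

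Every level below is a log2 signal relative to the 75th percentile of its array, from the brightest probe of the gene, listed in the order of replicates 1, 2 and 3. A level of 0 is thus the brightness that 75% of probes do not exceed. The processed signal at that percentile ran from 379.4 to 757.1 between arrays, 55.28% to 64.46% of probes were well above background, and no spot was saturated. The lowest level well above background differed between arrays, from -6.231 to -5.017, so a gene near it could be detected on 1 array and missed on another. All 16 fibroblast markers examined were well above background on all 12 arrays, with the collagen genes Col1a1, Col1a2 and Col3a1 at group means of 7.68 to 9.13. For the targeted gene itself, 1 Atm probe was well above background on 4 of 6 Atm-WT and 0 of 6 Atm-KO arrays and the other on 5 and 1, with overlapping levels; whether these probes lie in the deleted part is not known here. Arrays sat on 3 slides: Atm-WT replicates 1 and 2 on slide 1, Atm-WT replicate 3 with Atm-KO replicate 1 on slide 2, and Atm-KO replicates 2 and 3 on slide 3. On every slide positions 1 and 3 carried nonirradiated and positions 2 and 4 irradiated samples, which means that irradiation cannot be told apart from position.

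The myeloid genes were brighter in Atm-WT than in Atm-KO cultures. On the 6 Atm-WT arrays, 24 to 26 of the 27 genes were well above background. On the nonirradiated Atm-KO arrays 18, 11 and 11 were, and on the irradiated Atm-KO arrays 22, 16 and 15. Of the 27, 11 were well above background on all 12 arrays, and 5 (Itgam, Fcgr2b, Ptprc, Laptm5 and Cybb) on no Atm-KO array. These are bulk RNA samples, in which fewer cells of a type and less RNA per cell cannot be told apart.

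**Figure D1:**
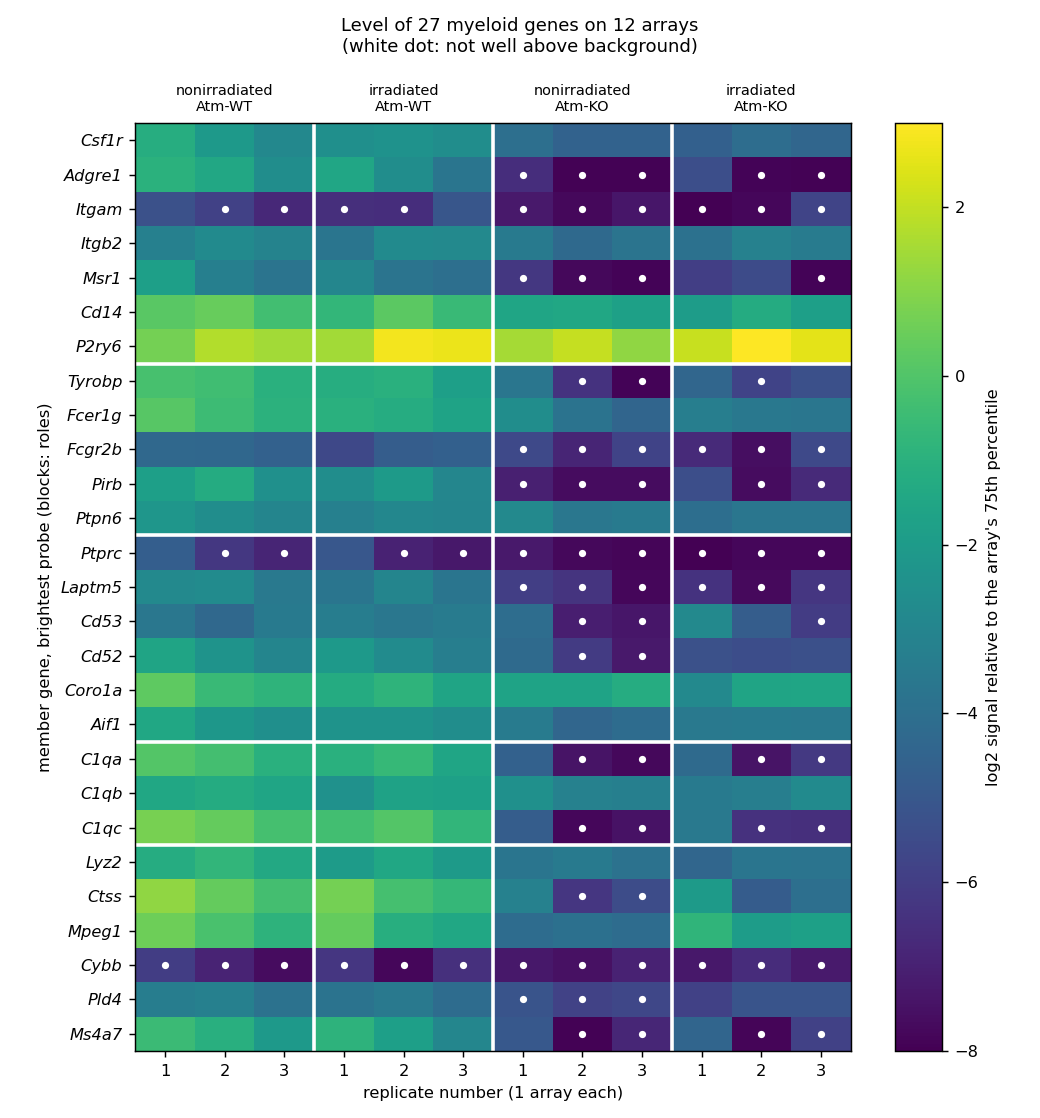
Levels of the 27 myeloid genes with a probe, 1 row per gene and 1 column per array, as log2 signal over the array's 75th percentile, with genes blocked by role and a white dot where the probe was not well above background. The dots lie mostly in the 6 Atm-KO columns, and P2ry6 has no dot in any of the 12 columns.

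In nonirradiated cells 23 of the 24 genes tested had a lower mean in Atm-KO than in Atm-WT cultures, with a median difference of -2.89 and a range from -6.97 to 0.27. The limma fit called 18 of the 24 lower (adjusted p under 0.05), beside 0.467% of all 18430 features. For 21 the Atm-KO arrays all lay below the Atm-WT arrays, beside 5.4% of all features. In irradiated cells 23 of 24 were again lower, with a median of -1.99 and a range from -5.16 to 0.22. There 6 of 24 were called lower, beside 0.147% of all features, and for 18 the Atm-KO arrays all lay below the Atm-WT arrays, beside 3.72%. Deviations of irradiated samples matched best by replicate number across genotypes for replicates 1 and 2, but not for replicate 3. With the replicate numbers as a block 3 genes were called, against 0.152% of all features. The choice of genes used this contrast, and 10 of the 24 could enter the fit only through their Atm-WT arrays, so these counts support nothing. Over all features the median difference was 0.04 in nonirradiated cells and -0.01 in irradiated cells. With values under the detection limit set to it, the median of the 24 was -2.479 in nonirradiated cells. The 11 genes measured on all 12 arrays had medians of -1.672 and -1.107.

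The counts of calls moved with single arrays, the background correction and the slide, while the medians stayed negative. In nonirradiated cells 11 genes were called without Atm-KO replicate 2 or 3 of that treatment. In irradiated cells none was called without irradiated Atm-WT replicate 2 or irradiated Atm-KO replicate 3, 2 without irradiated Atm-WT replicate 1 or irradiated Atm-KO replicate 2, and 3 without nonirradiated Atm-WT replicate 2 or irradiated Atm-WT replicate 3. With normexp background correction 12 and 1 were called, with medians of -1.562 and -0.628, and with the slide as a fixed term 5 and 1, with medians of -2.096 and -1.244. The shares of all features called under these settings are not given here, so nothing is read from these counts.

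The 3 replicates of a group were not alike. The median of the 24 genes, each centred on its mean over 12 arrays, was 2.17, 1.58 and 1.01 on the nonirradiated Atm-WT arrays and 1.18, 1.05 and 0.74 on the irradiated ones. On the Atm-KO arrays it was -0.63, -1.50 and -2.34 without irradiation and -0.88, -0.99 and -1.19 with it. The genotypes did not overlap. The nonirradiated Atm-WT replicate 1 held the highest level of 15 of the 24 genes and replicate 2 that of 7. The same median over 16 fibroblast markers ran only from -0.37 to 0.31 over the 12 arrays.

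**Figure D2:**
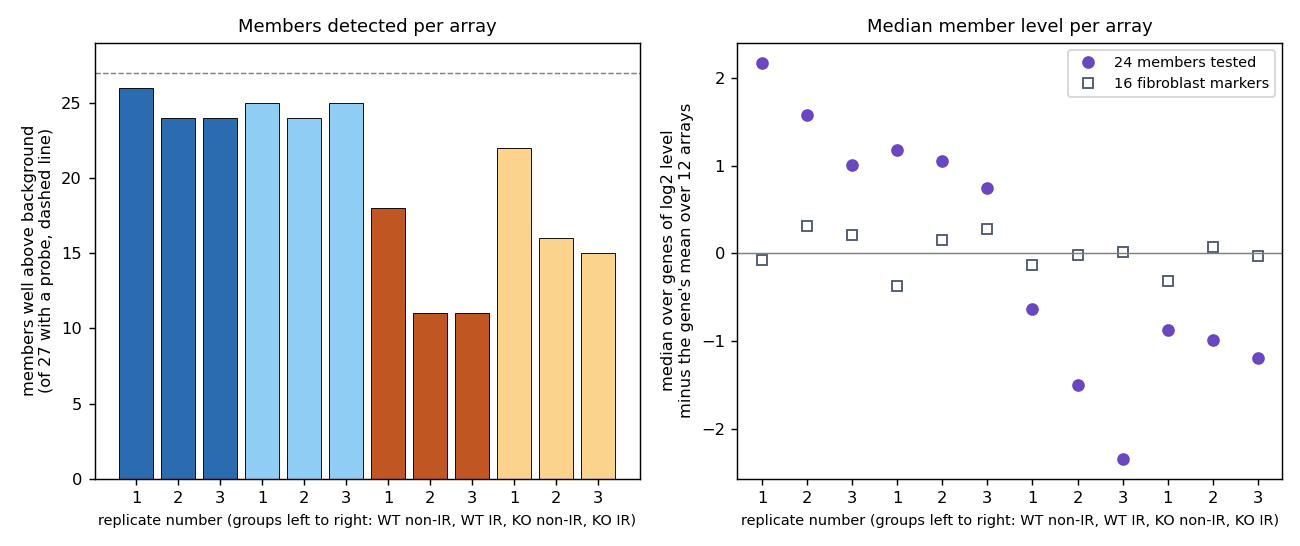
Left, the number of the 27 myeloid genes well above background on each array; right, the median over 24 myeloid genes (filled circles) and 16 fibroblast markers (open squares) of the log2 level minus the gene's mean over 12 arrays. Myeloid medians lie between 0.74 and 2.17 on Atm-WT arrays and between -2.34 and -0.63 on Atm-KO arrays, while fibroblast medians stay between -0.37 and 0.31.

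Slide 2 alone held both genotypes. There Atm-KO replicate 1 lay below Atm-WT replicate 3 for 22 of 24 genes in nonirradiated cells, with a median of -1.483, and for 22 of 24 in irradiated cells, with a median of -1.728. Over all features the medians within that slide were 0.01 and -0.32. This is 1 sample against 1, with no replicate check. In nonirradiated cells Atm-KO replicate 1 exceeded the other Atm-KO replicates for 20 of 24 genes, by a median of 0.78. In irradiated cells it did so for 13 of 24, by a median of 0.20, and there it held the lowest of the 12 levels for 7 genes. Without both arrays of that replicate, 19 of 24 genes were called lower in nonirradiated cells, with a median of -3.539, and 13 in irradiated cells, with a median of -1.934. The share of all features called without these arrays is not given here, so nothing is read from these counts.

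Some of these genes can be set beside the sequence in front of their start sites. PU.1, encoded by Spi1, is the transcription factor that specifies macrophages, and it binds purine-rich DNA such as the hexamer GAGGAA. RefSeq promoters (build GRCm38.p6, 250 bases before to 50 after the start) were held for 19 of the 28 genes, 22 promoters in all; none was held for Cd52, Tyrobp, Csf1r, Msr1, Itgb2, Adgre1, Cd14, C1qa and P2ry6. GAGGAA, on either strand, occurred in 13 of these 22 promoters and in 28.3% of all 32851 promoters. The interferon factor motif, GAAA on both sides of any 2 bases, also on either strand and able to share up to 3 bases with the former, occurred in 3 of the 22 (Aif1, Ctss and Cybb) and in 3.44% of all. The 250 bases before the start are shown for 5 genes whose levels the results below turn on, read 5′ to 3′ on the gene's strand, with GAGGAA or its reverse complement in capitals.
C1qc, chr4:136892915-136893164, strand -: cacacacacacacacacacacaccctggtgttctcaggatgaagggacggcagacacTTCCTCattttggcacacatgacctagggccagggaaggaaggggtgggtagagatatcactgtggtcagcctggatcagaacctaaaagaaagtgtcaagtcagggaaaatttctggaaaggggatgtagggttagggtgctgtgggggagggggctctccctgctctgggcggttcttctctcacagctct
Pirb, chr7:3720383-3720632, strand -: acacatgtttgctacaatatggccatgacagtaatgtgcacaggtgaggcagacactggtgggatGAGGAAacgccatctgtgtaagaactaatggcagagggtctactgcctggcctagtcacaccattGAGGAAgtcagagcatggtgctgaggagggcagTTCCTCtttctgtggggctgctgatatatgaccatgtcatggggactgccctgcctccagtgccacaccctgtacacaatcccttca
Laptm5, chr4:130913066-130913315, strand +: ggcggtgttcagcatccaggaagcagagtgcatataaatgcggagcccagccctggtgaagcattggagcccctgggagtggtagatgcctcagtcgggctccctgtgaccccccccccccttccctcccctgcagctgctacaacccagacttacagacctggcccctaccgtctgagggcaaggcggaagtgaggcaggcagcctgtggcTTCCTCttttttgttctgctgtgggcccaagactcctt
Ctss, chr3:95526536-95526785, strand +: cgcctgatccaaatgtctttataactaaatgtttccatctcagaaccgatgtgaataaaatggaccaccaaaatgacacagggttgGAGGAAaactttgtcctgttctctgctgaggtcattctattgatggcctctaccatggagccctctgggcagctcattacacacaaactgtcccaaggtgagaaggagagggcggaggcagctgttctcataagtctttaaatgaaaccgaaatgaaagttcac
Mpeg1, chr19:12460520-12460769, strand +: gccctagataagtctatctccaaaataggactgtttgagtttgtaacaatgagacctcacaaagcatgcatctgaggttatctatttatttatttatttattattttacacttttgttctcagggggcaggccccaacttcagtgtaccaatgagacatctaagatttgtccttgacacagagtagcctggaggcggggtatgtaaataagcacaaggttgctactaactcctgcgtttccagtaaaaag
In the stretches shown Pirb held 3 matches, C1qc, Laptm5 and Ctss 1 each and Mpeg1 none. Ctss held a further match at its start, beyond the stretch shown. A match is a description of the letters, and binding was not measured.

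The surface receptors included the macrophage growth factor receptor. Csf1r read -1.14, -2.03 and -2.88 on the nonirradiated Atm-WT arrays and -2.50, -2.40 and -2.62 on the irradiated ones. On Atm-KO arrays Csf1r read -3.99, -4.53 and -4.52 without irradiation and -4.62, -4.05 and -4.37 with it. Csf1r was above background on all 12 arrays, its genotypes did not overlap in either treatment, and the differences (Atm-KO minus Atm-WT, ± SE of the limma fit, n = 3 arrays per group here and below) were -2.33 ± 0.37 and -1.84 ± 0.37. Adgre1 encodes the adhesion receptor by which mouse macrophages are usually recognised. In Atm-WT cells Adgre1 lay at -0.99, -1.39 and -2.60 without irradiation and at -1.50, -2.61 and -3.73 after it, against -6.56, -7.93 and -7.94 and -5.34, -7.91 and -7.94 in Atm-KO cells. It was at least 13.9-fold lower in nonirradiated Atm-KO cells, where no array detected it, and 1 irradiated Atm-KO array did. Msr1 is a scavenger receptor for modified lipoproteins. For Msr1 the nonirradiated arrays gave -1.78, -3.24 and -3.78 in Atm-WT and -6.20, -7.79 and -7.88 in Atm-KO cells, and the irradiated arrays gave -2.96, -3.76 and -4.0 and -5.97, -5.48 and -7.89. It was at least 5.74-fold lower in nonirradiated Atm-KO cells, and 2 of 3 irradiated Atm-KO arrays detected it. Here and for other at-least folds, undetected arrays were set to the higher of their own signal and their lowest signal well above background.

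Cd14 is the co-receptor for bacterial lipopolysaccharide. Levels of Cd14 were 0.19, 0.43 and -0.32 in nonirradiated and -0.73, 0.21 and -0.53 in irradiated Atm-WT cells. In Atm-KO cells Cd14 measured -1.54, -1.46 and -1.73 when nonirradiated and -1.92, -1.22 and -1.79 when irradiated. All Atm-KO arrays lay below all Atm-WT arrays, by -1.67 ± 0.31 and -1.29 ± 0.31. Itgb2 encodes the beta chain shared by the leukocyte integrins. In Atm-WT cells Itgb2 lay at -3.21, -2.72 and -3.09 without irradiation and at -3.71, -2.75 and -2.82 after it, against -3.50, -4.26 and -3.77 and -3.89, -3.16 and -3.42 in Atm-KO cells. Its differences were -0.84 ± 0.33 and -0.40 ± 0.33, and the genotypes overlapped in irradiated cells. Itgam, the alpha chain that pairs with it on myeloid cells, was detected on 1 nonirradiated and 1 irradiated Atm-WT array and on no Atm-KO array, and was not tested. P2ry6, a receptor for extracellular UDP, departed from the other genes. P2ry6 read 0.70, 1.73 and 1.46 on the nonirradiated Atm-WT arrays and 1.48, 2.79 and 2.68 on the irradiated ones. On Atm-KO arrays P2ry6 read 1.5, 2.01 and 1.2 without irradiation and 2.08, 2.96 and 2.56 with it. All 12 arrays detected it, its genotypes overlapped in both treatments, and its differences were 0.27 ± 0.41 and 0.22 ± 0.41.

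Among the signalling proteins, both ITAM adaptors were lower in Atm-KO cells. Levels of Tyrobp were -0.19, -0.39 and -1.0 in nonirradiated and -1.15, -1.0 and -1.79 in irradiated Atm-WT cells. In Atm-KO cells Tyrobp measured -3.67, -6.38 and -7.91 when nonirradiated and -4.39, -5.79 and -5.31 when irradiated. Tyrobp was detected on 1 nonirradiated and 2 irradiated Atm-KO arrays, and the differences were -5.46 ± 0.80 and -3.85 ± 0.80. Raising undetected values to the detection limit gave -4.48 and -3.77. Fcer1g, the common gamma chain of Fc receptors, was detected on all 12 arrays. In Atm-WT cells Fcer1g lay at 0.14, -0.47 and -0.93 without irradiation and at -1.01, -1.18 and -1.60 after it, against -2.62, -3.81 and -4.40 and -3.29, -3.59 and -3.69 in Atm-KO cells. The genotypes did not overlap and differed by -3.19 ± 0.42 and -2.26 ± 0.42. Pirb is an ITIM receptor for class I histocompatibility molecules. For Pirb the nonirradiated arrays gave -1.77, -1.25 and -2.48 in Atm-WT and -7.02, -7.61 and -7.65 in Atm-KO cells, and the irradiated arrays gave -2.59, -2.03 and -2.95 and -5.35, -7.64 and -6.69. It was at least 12.3-fold lower in nonirradiated Atm-KO cells, and 1 irradiated Atm-KO array detected it. Its other probe gave -5.14 and -3.85 for the same comparisons, and the related Pira genes may share signal with either probe.

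Fcgr2b, the inhibitory Fc receptor, was detected on all Atm-WT and no Atm-KO arrays. Fcgr2b read -4.30, -4.34 and -4.59 on the nonirradiated Atm-WT arrays and -5.60, -4.74 and -4.62 on the irradiated ones. On Atm-KO arrays Fcgr2b read -5.56, -6.84 and -5.79 without irradiation and -6.68, -7.60 and -5.55 with it. It was at least 2.06-fold lower in nonirradiated and at least 1.72-fold lower in irradiated Atm-KO cells, though the irradiated groups overlapped. Ptpn6 encodes SHP-1, the phosphatase that ITIM receptors recruit. In Atm-WT cells Ptpn6 lay at -2.20, -2.60 and -3.00 without irradiation and at -3.19, -2.90 and -3.00 after it, against -2.84, -3.65 and -3.48 and -4.03, -3.67 and -3.70 in Atm-KO cells. The differences were -0.72 ± 0.28 and -0.77 ± 0.28, and the nonirradiated groups overlapped. The other Ptpn6 probe, also well above background on all 12 arrays, gave only -0.07 and -0.24, so the size rests on 1 probe.

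The genes found on most leukocytes included several near the detection limit. Ptprc encodes CD45, the surface phosphatase of leukocytes. It was detected on 1 nonirradiated and 1 irradiated Atm-WT array, both of replicate 1, and on no Atm-KO array, so it was not tested. Laptm5, a lysosomal membrane protein of blood cells, was detected on all 6 Atm-WT and no Atm-KO arrays. For Laptm5 the nonirradiated arrays gave -2.82, -2.68 and -3.55 in Atm-WT and -5.98, -6.36 and -7.83 in Atm-KO cells, and the irradiated arrays gave -3.71, -3.01 and -3.74 and -6.38, -7.72 and -6.27. It was at least 5.42-fold and 4.98-fold lower in nonirradiated and irradiated Atm-KO cells. Cd53 is a tetraspanin of leukocytes. Levels of Cd53 were -3.66, -4.28 and -3.53 in nonirradiated and -3.33, -3.65 and -3.42 in irradiated Atm-WT cells. In Atm-KO cells Cd53 measured -4.07, -7.09 and -7.34 when nonirradiated and -2.80, -4.76 and -6.05 when irradiated. The Atm-KO values spread over more than the whole Atm-WT range, the genotypes overlapped in both treatments, and only 1 nonirradiated and 2 irradiated Atm-KO arrays detected it.

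Cd52 encodes a short surface glycoprotein of leukocytes. In Atm-WT cells Cd52 lay at -1.56, -2.35 and -2.99 without irradiation and at -2.11, -2.71 and -3.32 after it, against -4.18, -6.08 and -7.24 and -5.29, -5.39 and -5.29 in Atm-KO cells. Cd52 was detected on 1 of 3 nonirradiated and 3 of 3 irradiated Atm-KO arrays, and differed by -3.53 ± 0.63 and -2.61 ± 0.63. Coro1a, an actin regulator of leukocytes, was detected on all 12 arrays. Coro1a read 0.26, -0.55 and -0.85 on the nonirradiated Atm-WT arrays and -1.25, -0.83 and -1.59 on the irradiated ones. On Atm-KO arrays Coro1a read -1.63, -1.61 and -1.20 without irradiation and -2.80, -1.60 and -1.53 with it. Its differences were -1.10 ± 0.39 and -0.75 ± 0.39, with overlap in irradiated cells. Aif1 encodes Iba1, a calcium-binding protein used to stain macrophages and microglia. Levels of Aif1 were -1.45, -2.20 and -2.53 in nonirradiated and -2.34, -2.35 and -2.59 in irradiated Atm-WT cells. In Atm-KO cells Aif1 measured -3.44, -4.39 and -4.11 when nonirradiated and -3.55, -3.49 and -3.56 when irradiated. Without overlap in either treatment, Aif1 differed by -1.92 ± 0.31 and -1.11 ± 0.31.

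Of the 3 C1q chains, C1qc and C1qa were detected in few Atm-KO samples. C1qc read 0.74, 0.39 and -0.25 on the nonirradiated Atm-WT arrays and -0.34, 0.07 and -0.78 on the irradiated ones. On Atm-KO arrays C1qc read -4.75, -7.82 and -7.46 without irradiation and -3.57, -6.44 and -6.52 with it. C1qc was detected on 1 of 3 Atm-KO arrays in each treatment, both of replicate 1, and differed by -6.97 ± 0.84 and -5.16 ± 0.84. With undetected values raised to the detection limit it differed by -5.66 and -4.58. In Atm-WT cells C1qa lay at 0.04, -0.27 and -1.0 without irradiation and at -1.03, -0.62 and -1.52 after it, against -4.58, -7.41 and -7.76 and -4.21, -7.43 and -6.19 in Atm-KO cells. C1qa was likewise detected in Atm-KO replicate 1 alone, and differed by -6.17 ± 0.85 and -4.89 ± 0.85, or by -4.90 and -4.09 with values raised in that way. C1qb encodes the remaining chain of the same molecule. For C1qb the nonirradiated arrays gave -1.45, -1.24 and -1.54 in Atm-WT and -2.48, -3.15 and -3.26 in Atm-KO cells, and the irradiated arrays gave -2.45, -1.67 and -1.74 and -3.51, -3.29 and -2.73. C1qb was detected on all 12 arrays and differed by -1.55 ± 0.31 and -1.22 ± 0.31, without overlap. Levels of different probes are not comparable with each other.

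Of the lysosomal and microbicidal genes, Lyz2 encodes the lysozyme of macrophages and neutrophils. Levels of Lyz2 were -1.21, -0.77 and -1.34 in nonirradiated and -1.98, -1.44 and -2.02 in irradiated Atm-WT cells. In Atm-KO cells Lyz2 measured -3.73, -3.52 and -3.83 when nonirradiated and -4.38, -3.71 and -3.78 when irradiated. All 12 arrays detected Lyz2, its replicates lay close together, and the genotypes differed by -2.59 ± 0.27 and -2.14 ± 0.27 without overlap. The near-identical Lyz1 may share this signal. Ctss is a lysosomal cysteine protease of antigen-presenting cells. Ctss read 1.15, 0.40 and -0.27 on the nonirradiated Atm-WT arrays and 0.70, -0.23 and -0.66 on the irradiated ones. On Atm-KO arrays Ctss read -3.17, -6.26 and -5.43 without irradiation and -2.00, -4.80 and -3.99 with it. It was detected on 1 nonirradiated and 3 irradiated Atm-KO arrays, and differed by -5.38 ± 0.81 and -3.54 ± 0.81, or by -5.18 in nonirradiated cells with undetected values raised to the limit. Mpeg1 encodes perforin-2, a pore-forming protein of phagocytes. Levels of Mpeg1 were 0.59, -0.14 and -0.91 in nonirradiated and 0.40, -1.10 and -1.45 in irradiated Atm-WT cells. In Atm-KO cells Mpeg1 measured -4.11, -3.92 and -4.10 when nonirradiated and -0.79, -1.94 and -1.77 when irradiated. The genotypes were far apart in nonirradiated cells, at -3.89 ± 0.50, and overlapped in irradiated cells, at -0.78 ± 0.50.

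Ms4a7 is a four-span membrane protein of macrophages. In Atm-WT cells Ms4a7 lay at -0.49, -1.04 and -2.05 without irradiation and at -0.87, -1.81 and -2.93 after it, against -4.98, -7.92 and -6.80 and -4.42, -7.87 and -5.85 in Atm-KO cells. It was detected on 1 Atm-KO array in each treatment, both of replicate 1, and differed by -5.38 ± 0.89 and -4.18 ± 0.89, or by -4.25 and -3.34 with raised values. Pld4 is a lysosomal nuclease. For Pld4 the nonirradiated arrays gave -3.34, -3.19 and -3.87 in Atm-WT and -5.15, -5.85 and -5.66 in Atm-KO cells, and the irradiated arrays gave -3.80, -3.55 and -4.09 and -5.86, -5.14 and -5.15. It was at least 3.94-fold lower in nonirradiated Atm-KO cells, and all 3 irradiated Atm-KO arrays detected it. Cybb, the catalytic subunit of the phagocyte oxidase, was not well above background on any of the 12 arrays.

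**Figure D3:**
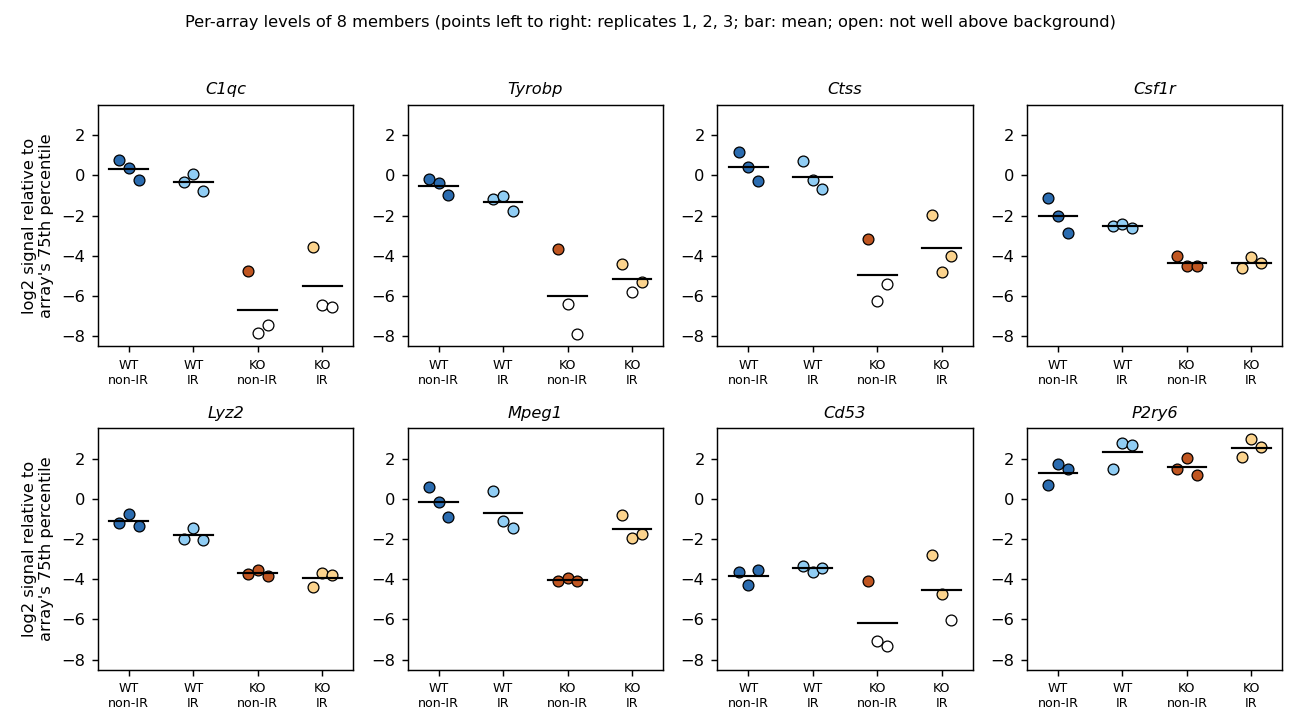
Per-array levels of 8 genes as log2 signal over the array's 75th percentile, with the 4 groups on the x axis, replicates 1 to 3 from left to right, group means as bars and open points where the probe was not well above background. C1qc, Tyrobp and Ctss have replicate 1 well above the other nonirradiated Atm-KO arrays, Lyz2 and Csf1r have tight Atm-KO groups, and Mpeg1 and P2ry6 lie higher after irradiation of Atm-KO cells.

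Irradiation of Atm-WT cells was not itself part of the choice of genes and was tested. Its baseline, the nonirradiated Atm-WT arrays, also entered the genotype contrast known beforehand. The direction of the members below is therefore not independent of the choice. No member passed limma's test over 12 arrays (0 of 24, where 0.445% of all features were called in either direction). Of the 24, 22 had a lower mean after irradiation and 2 a higher one, with a median of -0.55 and a range from -0.96 to 1.02. Over all features the median was -0.02, with 53.2% negative. For 5 genes, beside 5.7% of all features, every irradiated array lay below every nonirradiated one: Lyz2, at -0.71 ± 0.27 (limma's adjusted p = 0.602), Fcer1g, at -0.84 ± 0.42 (adjusted p = 0.838), Tyrobp, Fcgr2b and C1qb. Within slide 1, which held Atm-WT replicates 1 and 2, the median was -0.67 with 22 of 24 negative, and within slide 2 it was -0.27 with 19 of 24 negative.

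P2ry6 was the member that rose in irradiated Atm-WT cells once replicates were paired. Same-numbered Atm-WT samples deviated together, so the pairing applies. All 3 pairs were higher after irradiation, and the difference of 1.02 ± 0.20 had limma's adjusted p = 0.0392 with the replicate block and 0.635 without it. With the block 1.64% of all features were called higher, and no member was called lower. The block fit without replicate 1, 2 or 3 gave adjusted p of 0.0755, 0.156 and 0.252, so the call needs all 3 pairs. In Atm-KO cells P2ry6 was higher in all 3 pairs as well, by 0.97 ± 0.20, with adjusted p = 0.0512 with the block and no overlap between the groups.

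In Atm-KO cells the same test without pairing called none of the 24 members, where 0.00543% of all features were called in either direction. The member differences leaned upward: 16 were positive and 8 negative, with a median of 0.43 and a range from -0.54 to 2.55. Over all features the median was -0.05, with 54.7% negative. The 11 members well above background on all 12 arrays did not share this lean. Of them Itgb2, P2ry6, Fcer1g, Aif1 and Mpeg1 had 0.36, 0.97, 0.09, 0.45 and 2.55. Csf1r, Cd14, Ptpn6, Coro1a, C1qb and Lyz2 had -0.0001, -0.07, -0.48, -0.50, -0.22 and -0.26. The others were not well above background on nonirradiated Atm-KO replicates 2 and 3, so their differences include signal under the detection limit. Nonirradiated Atm-KO arrays also entered the genotype contrast known beforehand. With the replicate block 4 members were called higher (Mpeg1, Ctss, Cd53 and C1qc), where 1.18% of all features were called higher, and none lower. These 4 and P2ry6 are singled out because of this result. All 3 pairs rose in each.

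Mpeg1 had the largest of these rises, 2.55 ± 0.27 in the block fit, with limma's adjusted p = 0.0099 and 0.171 without the block. Its irradiated Atm-KO arrays all lay above its nonirradiated ones, and every one of the 6 was well above background. The other Mpeg1 probe, well above background on 4 of 12 arrays, gave -0.05, so the rise rests on 1 probe. Ctss rose by 1.36 ± 0.17 with the block, with adjusted p = 0.0141 and 0.765 without it. Cd53 rose by 1.63 ± 0.24, with adjusted p = 0.0189 and 0.696, and C1qc by 1.17 ± 0.21, with adjusted p = 0.0291 and 0.828. For these 3 genes only 1 of 3 nonirradiated Atm-KO arrays was well above background, and in irradiated Atm-KO cells C1qc was on 1, Cd53 on 2 and Ctss on 3 of 3 arrays. In 2 of the 3 pairs of C1qc neither array detected it, so the size of that rise is not measured.

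These calls depended on which pairs entered. Without replicate 1 in the block fit, Mpeg1, Ctss, Cd53 and C1qc had adjusted p of 0.0914, 0.0914, 0.108 and 0.0986. Without replicate 3 they had 0.0817, 0.154, 0.129 and 0.187. Without replicate 2 C1qc had 0.0706, and the others stayed past the threshold. The direction also differed between slides over the whole set: the Atm-KO pair on slide 2 had a median of -0.39 with 14 of 24 negative, and the pairs on slide 3 a median of 0.55 with 4 of 24 negative. Mpeg1 rose on both, by 3.33 on slide 2 and 2.16 on slide 3.

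**Figure D4:**
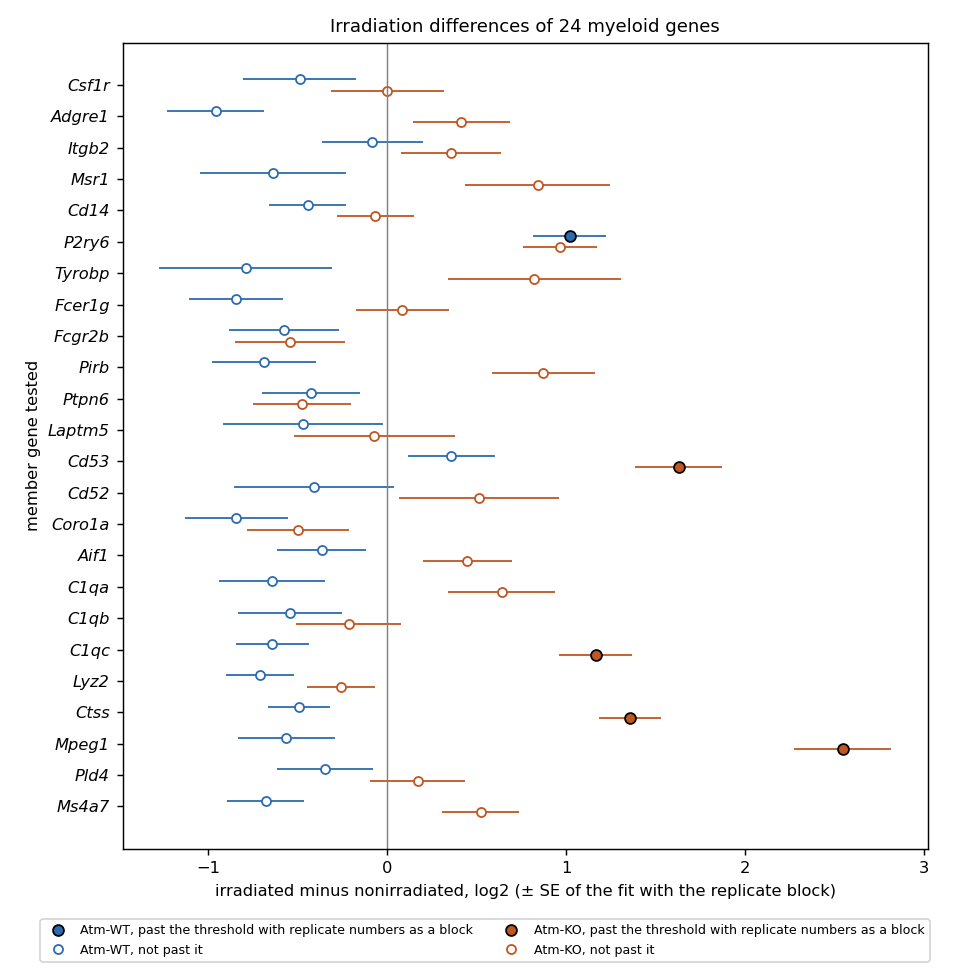
Irradiated minus nonirradiated log2 level of the 24 myeloid genes tested, in Atm-WT (blue) and Atm-KO (orange) cells, with the SE of the fit with replicate numbers as a block, and filled points past the threshold in that fit. Most Atm-WT points lie between -0.96 and 0, P2ry6 is the filled Atm-WT point, and Cd53, C1qc, Ctss and Mpeg1 are the filled Atm-KO points.

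For 22 of 24 genes the irradiation difference of Atm-KO cells exceeded that of Atm-WT cells, by a median of 0.87, while the same median over all features was -0.06. This contrast is made of the genotype differences by which the genes were known, and the Atm-WT and Atm-KO differences of these genes were therefore not tested against each other.

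Myeloid genes also varied together among replicates of 1 group, a pattern the choice of genes did not use. Deviations from the group means were correlated, over the 12 arrays, with the median deviation of the other members. The median Pearson r was 0.60 over 24 members, from -0.35 for P2ry6 to 0.86 for Fcer1g, and 15 of 24 (62.5%) exceeded 0.5. Among the 18406 other features the median was -0.05 and 7.12% exceeded 0.5. Within the Atm-WT groups alone C1qa and C1qc reached 0.99 and 0.98, Tyrobp 0.94 and Coro1a 0.91, whereas Itgb2, C1qb and Fcgr2b lay at -0.05, 0.11 and 0.14 and Cd53 at -0.41. Within the Atm-KO groups Fcer1g and Tyrobp reached 0.90 and 0.89 and C1qa and C1qc 0.80 and 0.78, and Cd53 lay at 0.79. Coro1a turned to -0.47 there, and Lyz2, at 0.53 in the Atm-WT groups, to -0.39. These correlations are descriptions: arrays share slide, position and signal level, and the deviations of 3 replicates sum to 0.

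The named genes most like the members in this measure were Lyl1 and Lmnb1 (r = 0.931 each), Nkd2 (0.922), Slc15a3 (0.919), Fcrls (0.915), Rgs8 (0.913), Psmc3ip (0.909) and Racgap1 (0.906), over 12 arrays. Lyl1, Slc15a3 and Fcrls were also dimmer in Atm-KO cells, with nonirradiated group means of -2.07 and -4.68, -4.72 and -7.06, and -3.04 and -6.18 in Atm-WT and Atm-KO cells. For Lmnb1, Psmc3ip and Racgap1 the nonirradiated means were 2.94 and 3.08, 0.45 and 0.78, and -0.27 and -0.34.

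A wider list of 124 other myeloid genes was examined in the same way, again written with earlier results of these data known. Of these, 120 had a probe and 65 were tested. In nonirradiated cells 18 of 65 were called lower and none higher in Atm-KO cells, with a median of -0.56, beside the 0.467% called lower of all features. In irradiated cells 4 were called lower and none higher, with a median of -0.42, beside the 0.147% called lower of all features. Like the members, many could pass the filter only through their Atm-WT arrays, so the shares are not evidence of their own. The nonirradiated count was 9, 7, 6 and 8 without nonirradiated Atm-WT replicate 1, Atm-WT replicate 2, Atm-KO replicate 2 and Atm-KO replicate 3, and the irradiated count was 1 without irradiated Atm-WT replicate 2, Atm-KO replicate 2 or Atm-KO replicate 3 and 7 without nonirradiated Atm-KO replicate 1. Members and these genes together made up 41.9% of the 86 features called lower in nonirradiated and 37% of the 27 in irradiated cells.

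The nonirradiated calls were 7 of 17 tested Fc receptor signalling genes, 5 of 13 pattern recognition and scavenger receptors, 2 of 7 inhibitory and surface proteins, 2 of 12 oxidase, lipid mediator and lysosomal genes and 2 of 5 resident macrophage genes. Trem2 is a lipid-sensing receptor that signals through Tyrobp. Trem2 read 0.97, 0.91 and 0.28 on the nonirradiated Atm-WT arrays and 0.10, 0.55 and -0.22 on the irradiated ones. On Atm-KO arrays Trem2 read -2.71, -4.29 and -4.58 without irradiation and -2.79, -2.26 and -2.74 with it. Trem2 was detected on all 12 arrays, with differences of -4.58 ± 0.43 (limma's adjusted p = 0.000373) and -2.74 ± 0.43 (adjusted p = 0.0244). Clec4d, a C-type lectin, was at least 6.72-fold lower (adjusted p = 8.9e-05) and at least 5.32-fold lower (adjusted p = 0.00329) in nonirradiated and irradiated Atm-KO cells. Stab1, a scavenger receptor of macrophages and sinus endothelium, differed by -4.40 ± 0.55 in nonirradiated cells (adjusted p = 0.00217). Cd300lf, an inhibitory receptor, was at least 3.7-fold and 4.51-fold lower (adjusted p = 0.00348 and 0.0161). Inpp5d, encoding the lipid phosphatase SHIP1, and Ncf4, an oxidase subunit, were at least 3.89-fold and 11.2-fold lower in nonirradiated cells (adjusted p = 0.00417 and 0.00685). Fcgr3 was lower by -3.30 ± 0.47 in irradiated cells (adjusted p = 0.0139), where 1 Atm-KO array detected it. Raising undetected values to the detection limit gave -2.22 for Fcgr3. Clec4d, Fcgr3, Cd300lf, Inpp5d and Ncf4 could enter the fit only through their Atm-WT arrays. Their adjusted p-values are therefore descriptions of the fit and support nothing. Those of Trem2 and Stab1 are descriptions as well, because the list was written with earlier results of these data known. With normexp background correction the nonirradiated differences of Clec4d, Cd300lf and Inpp5d were -1.49, -1.28 and -1.29 (adjusted p = 0.109, 0.416 and 0.223). The irradiated differences of Clec4d, Fcgr3 and Cd300lf were then -0.43, -0.43 and -0.44, and none of them was called. With the slide as a fixed term Stab1 and Inpp5d lost their nonirradiated calls (adjusted p = 0.129 and 0.225), and all 4 irradiated calls were lost (0.0901 to 0.474). Paired by replicate, the irradiated differences of Fcgr3 and Cd300lf had adjusted p of 0.086 and 0.0562. The irradiated calls of Fcgr3 and Cd300lf were lost without irradiated Atm-WT replicate 2, Atm-KO replicate 2 or Atm-KO replicate 3 (adjusted p from 0.0748 to 0.107), and that of Trem2 without any one of the 3 irradiated Atm-WT replicates or either of those Atm-KO arrays (0.0536 to 0.165).

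Not all myeloid genes followed. None of 6 tested myeloid transcription factors was called in either treatment: Cebpa had nonirradiated means of 0.93 in Atm-WT and 0.86 in Atm-KO cells, Irf8 differed by -1.66 ± 0.44 without overlap (adjusted p = 0.159), and Spi1 itself was well above background on no array. Of 17 chemokine, complement and cytokine receptors 8 were on no array and 1, Csf2rb, was tested, at -0.11 ± 0.54. The 4 antigen presentation genes tested lay higher in Atm-KO cells, with a median of 0.86 and none called, among them H2-Ab1 at 0.60 ± 0.29 and H2-DMa at 0.66 ± 0.35. Of the remaining lists, Arhgdib, Plcg2, Tlr9, Tlr2, Sirpa, Evi2a, Cyba, Lipa, Apoe and Tmem119, were detected on all 12 arrays and none was called by genotype. The resident macrophage genes Folr2 and Pf4 were called lower in nonirradiated Atm-KO cells, at -4.13 ± 0.78 (adjusted p = 0.0297) and -1.78 ± 0.35 (adjusted p = 0.036), and both calls were lost without any one nonirradiated Atm-WT replicate or without nonirradiated Atm-KO replicate 2 or 3 (adjusted p from 0.075 to 0.173). Leaving out nonirradiated Atm-KO replicate 1 or irradiated Atm-WT replicate 3 also ended the call of Pf4, at 0.0838 and 0.0567. With normexp the adjusted p was 0.11 for Folr2 and 0.131 for Pf4. With undetected values raised to the detection limit Folr2 differed by -2.60. Both genes were named after their values were seen, so their adjusted p-values are descriptions and support nothing.

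**Figure D5:**
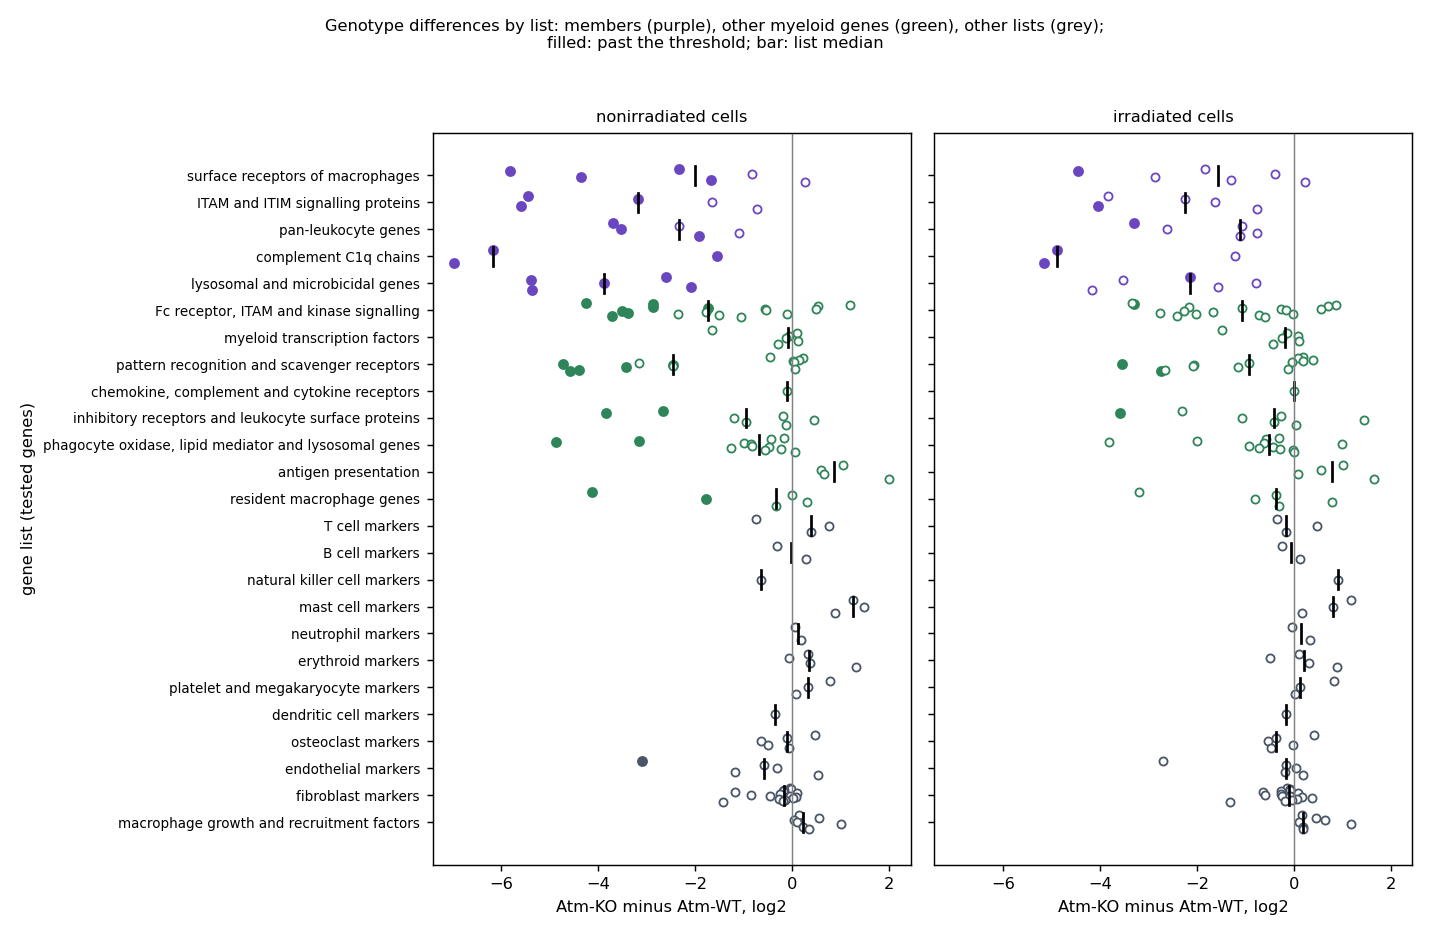
Atm-KO minus Atm-WT log2 difference of every tested gene by list, in nonirradiated (left) and irradiated (right) cells, with filled points past limma's threshold and bars at list medians. Members lie left of 0 apart from P2ry6, the green lists spread from -4.87 to 2.0 on the left, and the 16 fibroblast markers centre on -0.18 and -0.11.

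Irradiation called none of the 65 other myeloid genes in either genotype without pairing, with medians of -0.17 in Atm-WT and 0.18 in Atm-KO cells. With the replicate block, Clec4a2 and Pf4 fell in Atm-WT cells, by -2.05 ± 0.22 (limma's adjusted p = 0.00234) and -1.70 ± 0.28 (adjusted p = 0.016). In Atm-KO cells Ly86, which pairs with a Toll-like receptor relative, Alox5, which makes leukotriene precursors, and the integrin Itga4 rose, by 1.77 ± 0.28, 2.38 ± 0.28 and 1.33 ± 0.28 (adjusted p = 0.0224, 0.013 and 0.04995). Ly86 was above background on 1 irradiated and no nonirradiated Atm-KO array. The block calls of Ly86, Alox5 and Itga4 were lost without replicate 1 (adjusted p = 0.0914, 0.0914 and 0.217) or replicate 3 (0.137, 0.105 and 0.277), and so was that of Pf4 (0.0705 and 0.0849). That of Clec4a2 passed without each replicate in turn, but only 1 of 3 irradiated Atm-WT arrays detected the gene, so the size of its fall is uncertain.

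Many markers of other blood cells were on few or no arrays, and so were genes of some myeloid lists. On no array were 8 of 17 chemokine, complement and cytokine receptors, 4 of 21 pattern recognition and scavenger receptors and 2 of 10 myeloid transcription factors. Of the markers examined, 2 of 10 for T cells, 4 of 8 for B cells, 4 of 8 for natural killer cells and 3 of 9 for neutrophils with a probe were on no array. Among defining markers, Cd3d and Cd3g were on 1 array, Cd79a, Klrb1c, Klrk1, S100a9 and Cpa3 on none, S100a8 on 1, Cd79b on 4, Ncr1 on 3 and Flt3 on 1. Cd3e and Xcr1 were on all 12 arrays, and neither was called by genotype. Of platelet and erythroid markers, Ppbp and Itga2b were on all 12 arrays, Gp9 on none, Hba-a1 on 8 and Hbb-y on 7. Summed linear levels of the neutrophil list were 0.0817 to 0.265 times the 75th percentile signal in Atm-WT and 0.104 to 0.312 in Atm-KO samples, and those of the T cell list 0.365 to 0.734 and 0.503 to 0.943. The B cell list gave 0.64 to 1.26 in Atm-WT and 0.6 to 1.55 in Atm-KO samples. The platelet and megakaryocyte list gave 0.63 to 1.15 and 0.77 to 1.44. The 3 C1q chains by the same sum gave 1.23 to 3.07 and 0.115 to 0.258. Sums over different probes are not comparable in size between lists.

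A few other markers moved beside the members. Cdh5, the cadherin of endothelial junctions, was lower in nonirradiated Atm-KO cells, at -3.10 ± 0.61 (limma's adjusted p = 0.0373, and 0.0508 to 0.182 without any one nonirradiated array other than that of Atm-KO replicate 1 or without irradiated replicate 2 or 3 of either genotype), while the endothelial marker Pecam1 was on no array, Tek was on 11, and 1 of 5 tested endothelial markers was called. Raising undetected values to the detection limit gave -2.57 for Cdh5. The summed level of the endothelial list was 0.579 to 0.791 in Atm-WT and 0.235 to 1.25 in Atm-KO samples. The mast cell genes Cma1 and Hdc rose in irradiated Atm-WT cells, by 1.96 ± 0.34 (adjusted p = 0.0223) and 1.53 ± 0.25 (adjusted p = 0.0148), and Mcpt4 by 1.75 ± 0.24 with the replicate block (adjusted p = 0.0068, and 0.853 without the block, 0.0529 with the block without replicate 1 and 0.0584 without replicate 3). With normexp background correction these 3 dim genes gave -0.01, -0.15 and -0.40, and the calls of Cma1 and Hdc were each lost when 1 of 5 of the 6 Atm-WT arrays was left out (adjusted p from 0.0503 to 0.116). Of the osteoclast markers, Acp5, Ctsk and Oscar were on all 12 arrays and none was called. Of the 16 fibroblast markers none was called by genotype or by irradiation, and their summed level was 1423 to 2254 in Atm-WT and 1388 to 2007 in Atm-KO samples. The part of any of these in the myeloid differences was not tested.

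Factors by which fibroblasts support macrophages were present in both genotypes. Csf1, the ligand of the Csf1r product, lay at 4.41 ± 0.49 and 4.76 ± 0.79 (SD, n = 3) in nonirradiated and irradiated Atm-WT cells and at 4.54 ± 0.47 and 4.92 ± 0.60 in Atm-KO cells. Il34, the other ligand, lay at 0.43 ± 0.48, 0.83 ± 0.52, 0.98 ± 0.38 and 1.28 ± 1.02 in the same order, and Csf2 was on 2 arrays. None of 7 such genes tested was called by genotype. With the replicate block the monocyte chemokine genes Ccl2 and Ccl7 rose after irradiation of Atm-KO cells, by 1.71 ± 0.25 (limma's adjusted p = 0.0189) and 0.95 ± 0.20 (adjusted p = 0.0496), and Ccl7 rose in Atm-WT cells by 0.95 ± 0.20 (adjusted p = 0.0463), while Ccl2 there had 1.11 ± 0.25 (adjusted p = 0.0676). Without the block neither passed the test, and without replicate 1 or 3 in the block fit all 3 rises had adjusted p from 0.0928 to 0.239.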

How the data were processed

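Expression was measured in RNA of mouse embryonic fibroblasts on 12 single-colour arrays. The authors deposited 1 scanner file per array with the intensity of every spot and detection flags. Per the file headers these come from Feature Extraction 10.7.1.1 and array design 014868, whereas version 11.0 of that program stands in the submitters' processing notes. A further deposited file gives log2 values, with no stated scale or centring. Set against the scanner files, they matched a 75th percentile shift per array with each probe centred on its median over the 12 arrays (r from 0.99752 to 0.99969), and they served as an alternative.

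From each scanner file the processed signal was taken on the log2 scale, the array's 75th percentile was subtracted, and control spots were left out, as were outlier spots unless all spots of a probe were flagged. Names came from the accessions of 25097 of the 41174 probes, through gene names of RefSeq (GRCm38.p6). The brightest probe stood for a gene, and a feature was tested where some group measured it well above background in all 3 samples (18430 features). A 4-group model was fitted in R 4.3.3 by limma 3.58.1 after reading with the package data.table (1.17.8), with eBayes (8 residual and 4.13 prior degrees of freedom) and Benjamini-Hochberg adjustment over all features at 0.05; the fits were tested on simulated data. The number of arrays limits the precision.

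The members and all gene lists were chosen with earlier results of these data known. Adjusted p-values for genotype of the listed genes are therefore descriptions. Every member was described, with values per array where tested; of other myeloid genes, the 6 called with the smallest adjusted p in each comparison and direction and the brightest 2 of each list, of other cell types the first 3 markers of each list, and the 8 genes most alike were named, apart from a few genes that are not reported here. Folr2, Pf4, Clec4a2, Ly86, Alox5, Itga4, Hdc, Ccl2 and Ccl7 were named after their values were seen. Fits with replicate numbers as a block were made because the deviations of samples that share a number correlated: 0.852, 0.732 and 0.481 for irradiation in Atm-WT cells, 0.51, 0.269 and 0.503 in Atm-KO cells, and 0.628, 0.616 and 0.218 for genotype in irradiated cells. Another number correlated more for replicate 2 in Atm-KO cells (0.335) and replicate 3 across genotypes in irradiated cells (0.341). For genotype in nonirradiated cells same-numbered samples did not correlate (-5.17e-05, 0.179 and -0.217). Alternatives were normexp background correction (offset 50), quantile normalization, other filters, the mean of all probes, the slide, the block and leaving out arrays.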

Additional observations from a re-analysis of the deposited data

Results flagged for a closer look

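In 4 members every Atm-WT pair was lower after irradiation and every Atm-KO pair higher, and in a further member, Adgre1, 2 Atm-KO pairs were higher and the third was level at 0.00. The difference of the irradiation effects (Atm-KO minus Atm-WT) was 3.11 for Mpeg1, 1.85 for Ctss, 1.81 for C1qc, 1.37 for Adgre1 and 1.2 for Ms4a7, on the log2 scale. These differences were not tested, because they are made of the genotype differences by which the genes were known. In Mpeg1 the Atm-WT pairs ran from -0.96 to -0.19 and the Atm-KO pairs from 1.98 to 3.33. In Ctss they ran from -0.64 to -0.39 and from 1.18 to 1.45, and in C1qc from -1.09 to -0.31 and from 0.94 to 1.38. Adgre1 and Ms4a7 had Atm-KO pairs that began at 0.00 and 0.05, and both were well above background on 1 or no Atm-KO array in each treatment. C1qc was well above background in Atm-KO replicate 1 alone, and Ctss on 1 of 3 nonirradiated Atm-KO arrays. The sizes of their Atm-KO rises therefore include signal under the detection limit. The other Mpeg1 probe, well above background on 4 of 12 arrays, gave 0.21 in Atm-WT and -0.05 in Atm-KO cells.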

How the results depend on the processing

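Members called under irradiation stayed at 0 in both genotypes under every alternative but the replicate block, with 1 in Atm-WT and 4 in Atm-KO cells; without 1 replicate in that block the counts ran from 0 to 0 and from 0 to 4. Normexp background correction moved the members called lower in irradiated Atm-KO cells from 6 to 1, the other myeloid genes called lower from 18 to 4 (nonirradiated) and from 4 to 1 (irradiated), and the members' medians to -1.562 and -0.6276. With no filter on dim probes 2 members were lower in irradiated cells and 10 other myeloid genes in nonirradiated cells, and the nonirradiated median was -2.343. Features well above background on all 12 arrays gave 7 and 1 members, 3 and 1 other myeloid genes, and medians of -1.672 and -1.107; fewer genes are tested there. The slide as a fixed term, which rests genotype on slide 2, gave 5 and 1 members, 4 and 0 other myeloid genes, and medians of -2.096 and -1.244. The replicate block gave 3 members in irradiated cells; the numbers do not pair the nonirradiated samples across genotypes, where 18 members were called with the block too. In alternatives chosen after seeing the data, raising undetected values to the detection limit gave 10 members and 8 other myeloid genes in irradiated cells, and leaving out both arrays of Atm-KO replicate 1 gave 13 and 12, with a nonirradiated median of -3.539. Leaving out 1 array gave 11 to 18 and 0 to 9 members, 6 to 19 and 1 to 7 other myeloid genes, and medians from -3.539 to -2.658 and from -2.153 to -1.871 in nonirradiated and irradiated cells. The causes were not tested, and for most alternatives the share of all features called is not given here. Under normexp the irradiation difference in Atm-WT cells turned to -0.4834 for Cd53, -0.009646 for Cma1, -0.1533 for Hdc and -0.3954 for Mcpt4. Over the single genes tested under each alternative, 77 values kept their sign and lost a call, 30 gained one and 738 did neither. The 4 turned values above are apart from these, and those of Cma1 and Hdc were no longer called. With 11 of 27 members well above background on all 12 arrays, signal over background limits the sizes of the other differences.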
